A study of Mus musculus with 16 samples.

Results

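Ribosome-bound RNA of hypothalamic Pnoc neurons was compared between mice fed high-fat food (HFD) over 3 days and mice kept on chow (control diet, CD). The comparison rests on 8 of the 16 libraries of the series, 4 immunoprecipitate (IP) libraries for HFD and 4 for CD. The other 8 libraries, the inputs, hold RNA of the whole hypothalamus. Both groups were PNOC-L10a-EGFP mice on the C57BL/6N background, 10 to 12 weeks old. All of them carried the tagged ribosomal protein, so there was no group without the tag. The labels do not say what sequence drives the tag, whether a library was made from 1 animal or from pooled animals, or whether libraries were prepared together. The authors deposited 1 table for each diet with a single FPKM (fragments mapped to a gene, scaled to its length and to the library) for the input group and a single FPKM for the IP group. The tables list only genes whose IP and input differed at a q-value under 0.05.

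The tables of both diets were joined on gene and locus, which gave 5553 entries listed in both. Of these, 1088 had less than 1 FPKM in the IP of a diet, and 4465 were compared, of 7672 gene names listed in either table. For each, the difference was log2 of the HFD IP FPKM over the CD IP FPKM, centred on the median of all compared genes (-0.01 before centring), so that a positive value means a higher level in HFD. A gene that was significant in the table of 1 diet alone is therefore not among the 4465. With 1 value per group there are no replicates to test across. All levels below are the authors' group FPKM, and a difference is read against a standard error recovered from the deposited statistics of both tables (median 0.41 log2 units). That error also holds the spread of the input libraries. The depth of the libraries is unknown, and no source used here says if the scale is common to both tables.

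In this kind of mouse the ribosomal protein L10a is fused to a green fluorescent protein in a chosen cell type, and an antibody to the fluorescent protein pulls down the ribosomes of those cells with the mRNA they carry. Pnoc encodes prepronociceptin, the precursor of nociceptin, a peptide that acts on the opioid-like receptor encoded by Oprl1. Nociceptin promotes feeding in rodents, and Pnoc neurons of the arcuate nucleus release the inhibitory transmitter GABA. A ribosome-bound level depends on how much of an mRNA a cell holds and on how much of it is on ribosomes. In pooled tissue, fewer tagged cells and less RNA per tagged cell cannot be told apart.

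The IP of both diets had the markers of its label. Pnoc (ENSMUSG00000045731, GRCm38.p6 chromosome 14, 65400673 to 65425472, minus strand) stood at 19.8 FPKM in the HFD IP and 19.9 FPKM in the CD IP, against inputs of 4.35 FPKM in HFD and 4.62 FPKM in CD. In the authors' deposited tables its log2 ratio of IP over input was 2.18 in HFD and 2.11 in CD, with a q-value of 0.000379 in each. Gad1 and Gad2, which make GABA, and Slc32a1, which loads it into vesicles, were also above their inputs in both diets. Astrocyte and oligodendrocyte markers were all below theirs. The 12 astrocyte markers listed for both diets summed to 533 FPKM in the HFD IP and 514 FPKM in the CD IP. Their inputs summed to 1532 FPKM in HFD and 1558 FPKM in CD. Of these 12, 11 were compared between diets. The 12 oligodendrocyte markers summed to 209.4 FPKM in the HFD IP and 209.2 FPKM in the CD IP, with inputs of 1848 FPKM in HFD and 1905 FPKM in CD. Rpl10a, the ribosomal protein that bears the tag, stood at 267 FPKM in the CD IP and was not listed in the HFD table.

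Over the 4465 compared genes, the group levels in the IP differed little between HFD and CD. The comparison leaves out 987 tests listed for HFD alone and 1133 listed for CD alone. With a median recovered error of 0.41 log2 units, small and moderate differences of single genes cannot be told from none. The difference had an SD of 0.17 log2 units over the 4465 genes, with quartiles at -0.10 and 0.09. A typical gene differed by 1.07-fold, and 95% of genes differed by less than 1.24-fold. Past 1.5-fold there were 22 genes, or 0.493%, of which 15 (0.336%) were lower and 7 (0.157%) higher in HFD. Of these 22, 10 had under 5 FPKM in the IP of both diets and 6 were not protein-coding. Genes that were depleted from the IP in both diets held 18 of the 22 (1.21% of 1482 genes), and genes enriched in it held 4 (0.134% of 2983 genes). The difference lay outside the 95% range of its recovered error in 4 genes (0.0896%), which were Cga, Gh, Ttr and Slc6a3, all lower in HFD. That error is wide beside the deposited p-values. With the error scaled to them, an alternative added after the values were seen, 29 genes (0.649%) lay outside the range, 17 (0.381%) lower and 12 (0.269%) higher in HFD. Besides the 4, they include Aldh1a1, Tmem160, Ramp3, Slc17a7, Cck and Uqcr10, all lower in HFD, and Prl, Tbr1, Irs4, Peg10, Hmgn5, Cd24a and Tead1, all higher.

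**Figure D1:**
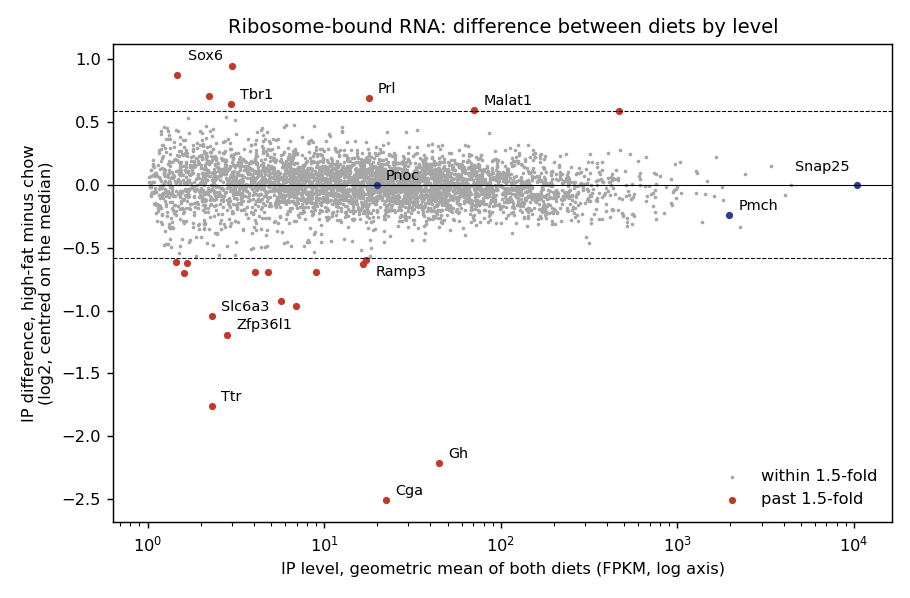
Centred log2 difference of the ribosome-bound level, HFD minus CD, against the geometric mean of the IP levels of both diets in FPKM on a log axis. Each point is 1 of the 4465 genes and dashed lines mark 1.5-fold. The 22 genes past the lines lie mostly at low levels, and Cga and Gh are the lowest points.

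The most abundant ribosome-bound mRNAs were close between diets. Snap25, a core protein of synaptic vesicle fusion, stood at 10374 FPKM in HFD and 10483 FPKM in CD, a centred difference of -0.00448 ± 0.50 (recovered standard error here and below). Atp5b, the catalytic subunit of the mitochondrial ATP synthase, stood at 4385 FPKM in HFD and 4411 FPKM in CD. Calmodulin mRNA Calm2 was at 3964 FPKM in HFD and 4231 FPKM in CD, the calcium sensor Vsnl1 at 3583 FPKM in HFD and 3254 FPKM in CD, and the G protein subunit Gnas at 2472 FPKM in HFD and 2345 FPKM in CD. Their differences ran between -0.08 and 0.15. Pmch, the precursor of the feeding-promoting melanin-concentrating hormone, was at 1806 FPKM in HFD and 2151 FPKM in CD, a difference of -0.24 ± 0.35.

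Genes that define the tagged cells did not separate the diets either. The difference of Pnoc was -0.00172 ± 0.44, with a 95% interval from -0.87 to 0.86. Gad1 was at 164 FPKM in HFD and 161 FPKM in CD (difference 0.04 ± 0.34). Gad2 was at 438 FPKM in HFD and 371 FPKM in CD (0.25 ± 0.39), and its input difference was 0.24. Slc32a1 was at 49.5 FPKM in HFD and 52.3 FPKM in CD (-0.07 ± 0.33). Oprl1, the nociceptin receptor, was at 26.6 FPKM in HFD and 29.7 FPKM in CD (-0.15 ± 0.37).

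The genes with the largest differences were hormone genes of the anterior pituitary, the gland below the hypothalamus. Cga, the shared alpha subunit of thyrotropin and the gonadotropins (ENSMUSG00000028298, GRCm38.p6 chromosome 4, 34893779 to 34907370, plus strand), stood at 9.34 FPKM in the HFD IP and 53.7 FPKM in the CD IP. Its difference was -2.51 ± 0.57, or 5.70-fold lower in HFD. Gh, growth hormone (chromosome 11, 106300271 to 106301865, minus strand), stood at 20.6 FPKM in the HFD IP and 96.4 FPKM in the CD IP, a difference of -2.21 ± 0.51, or 4.64-fold lower. Prl, prolactin (chromosome 13, 27057570 to 27065205, plus strand), lay the other way, with 22.7 FPKM in the HFD IP and 14.1 FPKM in the CD IP, a difference of 0.69 ± 0.54. Pomc, which the pituitary shares with arcuate neurons, was at 11.1 FPKM in HFD and 13.6 FPKM in CD (-0.28 ± 0.47).

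The inputs differed in the same directions for all 4. Cga was at 22.1 FPKM in the HFD input and 72.6 FPKM in the CD input. Gh was at 204 FPKM in the HFD input and 781 FPKM in the CD input, and Prl at 243 FPKM in the HFD input and 146 FPKM in the CD input. Each was below its input within a diet: in the authors' deposited tables the log2 ratio of IP over input was -3.31 in HFD and -3.02 in CD for Gh, and -1.245 in HFD and -0.44 in CD for Cga. The 4 compared of 6 listed pituitary markers summed to 63.7 FPKM in the HFD IP and 178 FPKM in the CD IP, and to 542 FPKM in the HFD input and 1086 FPKM in the CD input. How much pituitary tissue entered each group was not tested.

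Promoters of Cga and Prl, hormone genes of the same gland that lay in opposite directions, are shown. They are the 250 bases before the RefSeq start of each gene (GRCm38.p6), at chr4:34893529-34893778 for Cga and chr13:27057320-27057569 for Prl, both on the plus strand. Capitals mark matches, on either strand, to TATAAA (the TATA box) and to TATNCAT (a core of the motif of the pituitary factor POU1F1).
Cga: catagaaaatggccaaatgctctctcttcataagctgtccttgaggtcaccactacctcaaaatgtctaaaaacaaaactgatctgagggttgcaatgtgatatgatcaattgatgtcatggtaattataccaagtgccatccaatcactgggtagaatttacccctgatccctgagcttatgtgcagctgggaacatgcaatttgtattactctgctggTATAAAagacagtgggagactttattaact
Prl: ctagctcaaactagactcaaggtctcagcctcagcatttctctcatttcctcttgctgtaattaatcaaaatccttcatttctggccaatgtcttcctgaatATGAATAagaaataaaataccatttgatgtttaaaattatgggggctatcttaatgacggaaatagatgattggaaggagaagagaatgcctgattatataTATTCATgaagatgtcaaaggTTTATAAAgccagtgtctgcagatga
The Cga promoter held a single TATAAA, 30 bases before the start, and no TATNCAT. The Prl promoter held overlapping TATAAA matches, on opposite strands, 26 and 24 bases before the start, and TATNCAT at 148 and 47 bases before it. Among 32851 mouse promoters of the same length, 12.4% held TATAAA and 7.92% held TATNCAT. A match describes letters in a window and is not a mapped binding site. The promoter of Gh, which lay lower in HFD like Cga, was not available here. The difference of Prl lay within the 95% range of its recovered error. Whether matches go with the direction of a difference was not tested.

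The other genes outside the range of the recovered error mark the choroid plexus and dopamine neurons. Ttr, transthyretin, the hormone carrier made by the choroid plexus, was at 1.252 FPKM in the HFD IP and 4.28 FPKM in the CD IP (-1.76 ± 0.66), with 8.89 FPKM in the HFD input and 54.7 FPKM in the CD input. Slc6a3, the dopamine transporter, was at 1.61 FPKM in the HFD IP and 3.34 FPKM in the CD IP (-1.04 ± 0.43), with 18.0 FPKM in the HFD input and 37.1 FPKM in the CD input. Both were thus lower in HFD in IP and input alike. The 3 compared choroid plexus markers summed to 3.64 FPKM in the HFD IP and 7.41 FPKM in the CD IP, and to 15.2 FPKM in the HFD input and 60.7 FPKM in the CD input. Ttr alone carried the difference in the input sums. Clic6 was at 1.05 FPKM in the HFD IP and 1.05 FPKM in the CD IP, with 3.37 FPKM in the HFD input and 3.11 FPKM in the CD input, and the input of Otx2 was at 2.92 FPKM in HFD and 2.96 FPKM in CD. The part of choroid plexus tissue in these results was not tested. Aldh1a1, a retinoic acid synthesising enzyme, was also lower in both, at 13.3 FPKM in the HFD IP and 20.7 FPKM in the CD IP (-0.63 ± 0.38, input difference -0.42).

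**Figure D2:**
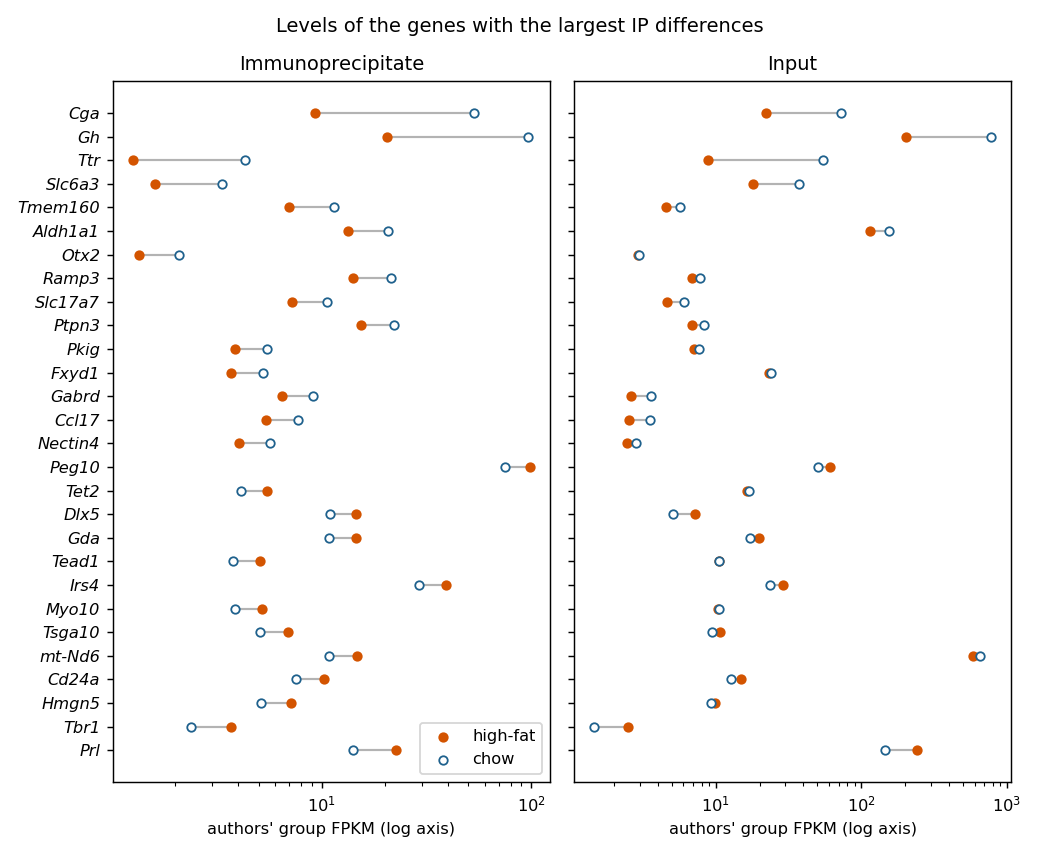
Levels in FPKM on a log axis of the named genes with the largest IP differences, in the IP (left) and the input (right), with filled points for HFD, open points for CD and 1 authors' group value per point. Cga, Gh, Ttr and Slc6a3 lie farthest apart in the IP and lie apart the same way in the input.

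Among receptors for feeding and metabolic signals, 16 of 34 listed genes were compared and the median difference was -0.03, with 6 above and 10 below the median of all genes. Ramp3, which joins the calcitonin receptor to form an amylin receptor (ENSMUSG00000041046, GRCm38.p6 chromosome 11, 6658521 to 6677475, plus strand), was the 1 member of 16 past 1.5-fold lower, where 0.336% of all compared genes lay. It stood at 14.0 FPKM in the HFD IP and 21.4 FPKM in the CD IP, a difference of -0.60 ± 0.46, against -0.16 in the input. Calcr, the calcitonin receptor itself, lay the other way, at 6.34 FPKM in HFD and 5.39 FPKM in CD (0.24 ± 0.41). Glp1r, the receptor of the satiety hormone GLP-1, was at 5.53 FPKM in HFD and 4.41 FPKM in CD (0.34 ± 0.52). The insulin receptor Insr was level, at 5.62 FPKM in HFD and 5.77 FPKM in CD (-0.03 ± 0.36), as was the opioid receptor Oprm1, at 29.2 FPKM in HFD and 28.1 FPKM in CD (0.06 ± 0.50). Each of these differences, that of Ramp3 being 1.29 times its error, lay within the 95% range of its recovered error, but Ramp3 lay outside the range of the error scaled to the deposited p-values.

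Of 29 genes of leptin and insulin signalling, 6 were compared, with a median of 0.17 in the IP and -0.04 in the input. The IP median was 0.08 at a minimum of 5 FPKM and 0.13 with centring within quartiles of exonic length. Of the 6, 4 lay above the median of all genes and 2 slightly below, Akt2 (-0.04) and Sh2b1 (-0.01). Irs4, a docking protein of the insulin receptor (ENSMUSG00000054667, GRCm38.p6 chromosome X, 141710998 to 141725263, minus strand), was among the 12 highest differences of well-expressed protein-coding genes. It stood at 39.1 FPKM in the HFD IP and 29.1 FPKM in the CD IP (0.44 ± 0.33), with 28.9 FPKM in the HFD input and 23.6 FPKM in the CD input. Foxo1, a transcription factor that insulin keeps out of the nucleus, was at 2.99 FPKM in HFD and 2.51 FPKM in CD (0.27 ± 0.36, input -0.02). Pik3r1, the regulatory subunit of PI3 kinase, was at 23.5 FPKM in HFD and 19.7 FPKM in CD (0.26 ± 0.59, input -0.06). Irs2, the main docking protein of the family in neurons, was nearly level at 29.4 FPKM in HFD and 28.2 FPKM in CD (0.07 ± 0.32). None of the 6 passed 1.5-fold, past which only 0.493% of all compared genes lay.

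Neuropeptide precursors showed no common direction. Of 35 listed, 20 were compared, 9 above and 11 below the median of all genes. None passed 1.5-fold, past which only 0.493% of all compared genes lay, so that count says little about so few genes. With centring within length quartiles of exonic length 13 lay above and 7 below, with a median of 0.06. Cck, cholecystokinin, had the lowest difference, at 267 FPKM in the HFD IP and 370 FPKM in the CD IP (-0.46 ± 0.38), and its input lay likewise, at 119 FPKM in HFD and 160 FPKM in CD. Gnrh1, the precursor of gonadotropin-releasing hormone, had the highest, at 12.3 FPKM in the HFD IP and 9.33 FPKM in the CD IP (0.41 ± 0.92), with an input difference of 0.77. The appetite-suppressing Cartpt was at 69.6 FPKM in HFD and 81.0 FPKM in CD (-0.21 ± 0.37, input -0.03), and galanin, Gal, at 48.3 FPKM in HFD and 41.9 FPKM in CD (0.22 ± 0.40, input -0.08). Growth hormone-releasing hormone, Ghrh, was level at 41.8 FPKM in HFD and 43.1 FPKM in CD.

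Genes that process and pack peptides lay mostly lower in HFD, in the IP and in the input. Of 14 listed, 11 were compared and 8 lay below the median of all genes, with a median difference of -0.14 in the IP and -0.14 in the input. The 8 include Sst (-0.13), itself a peptide precursor, which is also counted in the list of precursors. Pcsk1n, an inhibitor of prohormone convertase, was at 64.1 FPKM in the HFD IP and 78.1 FPKM in the CD IP (-0.28 ± 0.33). Vgf, a secreted peptide precursor, was at 24.6 FPKM in HFD and 29.5 FPKM in CD (-0.25 ± 0.68), and the convertase Pcsk2 at 46.9 FPKM in HFD and 52.6 FPKM in CD (-0.16 ± 0.33). Among immediate early genes, which neurons transcribe after activity, 4 of 25 were compared. Egr1 was at 25.8 FPKM in HFD and 28.9 FPKM in CD (-0.15 ± 0.34), Arc at 3.57 FPKM in HFD and 3.24 FPKM in CD (0.15 ± 0.41), Dusp1 at 18.6 FPKM in HFD and 18.9 FPKM in CD (-0.01 ± 0.37) and Btg2 at 1.73 FPKM in HFD and 1.34 FPKM in CD (0.38 ± 0.50).

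GABAergic and developmental transcription factor genes lay mostly higher in HFD, again with their inputs. Of 10 compared GABAergic genes, 8 lay above the median of all genes, with a median difference of 0.11 in the IP and 0.17 in the input. Dlx5, a homeobox gene of forebrain inhibitory neurons, stood at 14.6 FPKM in the HFD IP and 11.0 FPKM in the CD IP (0.42 ± 0.43), with 7.22 FPKM in the HFD input and 5.12 FPKM in the CD input. Of 10 compared hypothalamic transcription factors, 8 lay above, with a median of 0.11 in the IP and 0.09 in the input. Lhx6, a LIM homeobox gene of inhibitory neurons, was at 12.3 FPKM in the HFD IP and 9.42 FPKM in the CD IP (0.39 ± 0.41, input 0.54), whereas Lef1 was at 69.7 FPKM in HFD and 81.4 FPKM in CD (-0.21 ± 0.77, input -0.25).

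Markers of thalamic neurons, from the region above the hypothalamus, all lay below the median in both fractions. The protein kinase Prkcd was at 101 FPKM in the HFD IP and 133 FPKM in the CD IP (-0.38 ± 0.39, input -0.44), and the Wnt effector Tcf7l2 at 145 FPKM in HFD and 181 FPKM in CD (-0.31 ± 0.48, input -0.31). The median over the 4 compared of 6 was -0.23 in the IP and -0.26 in the input. Slc17a7, a vesicular glutamate transporter of cortex and thalamus, was at 7.24 FPKM in the HFD IP and 10.6 FPKM in the CD IP (-0.54 ± 0.43, input -0.39). Tbr1, a transcription factor of cortical glutamatergic neurons, lay the other way, at 3.69 FPKM in HFD and 2.38 FPKM in CD (0.64 ± 0.50, input 0.79). The part of thalamic or cortical tissue in these values was not tested.

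**Figure D3:**
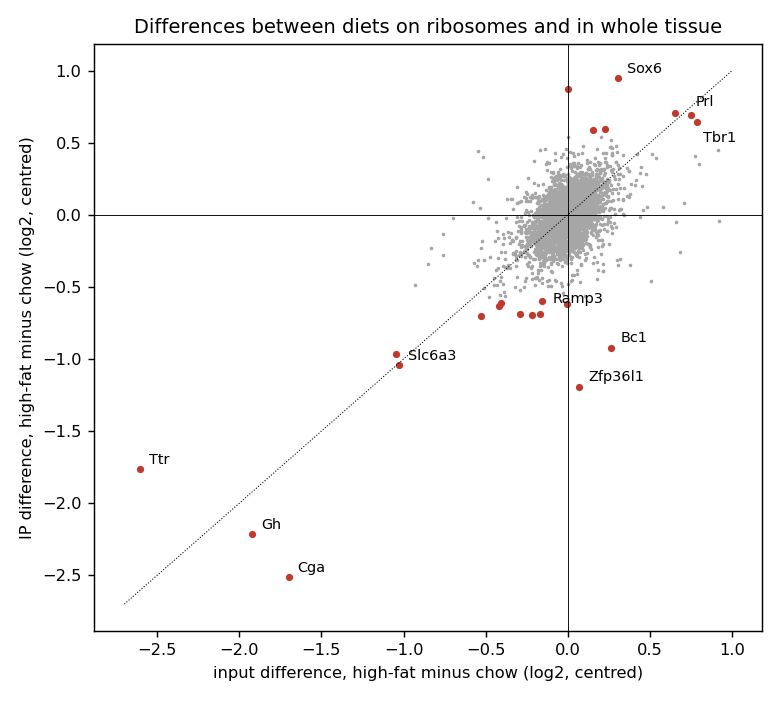
Centred log2 difference between diets, HFD minus CD, in the IP (vertical) against the input (horizontal) for the 4465 genes. Red points passed 1.5-fold in the IP, and the dotted line marks equal differences. Cga, Gh, Ttr and Slc6a3 lie in the lower left, Gh and Slc6a3 closest to the line, while Zfp36l1 and Bc1 are lower in HFD in the IP at input differences of 0.07 and 0.27.

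Across the compared genes the IP difference followed that of the input in part. Pearson's r over the 4465 genes was 0.54 and Spearman's rho 0.47. Without the 22 genes past 1.5-fold, r was 0.46 over 4443 genes. Genes are not independent replicates, and both fractions share tissue and processing. Only genes whose IP differed from the input in both diets were compared, and none changed direction between diets. Genes listed for a single diet are left out, which can raise the likeness of the fractions here and in the counts below. The size of that effect was not tested. In the input, 21 of the same genes (0.47%) passed 1.5-fold. Of the 22 that passed in the IP, 20 had the same sign in the input and 8 also passed there. Among 3168 protein-coding single genes with at least 5 FPKM in the IP of a diet, the IP difference and the input difference lay within 0.25 log2 units of each other in 95%.

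Shifts that were small for each gene but shared by most members appeared in the genes of the respiratory chain, which makes ATP in mitochondria. Of 64 compared nuclear-encoded subunits of 75 listed, 61 lay below the median of all genes, against 50.0% of all genes by construction. Their median difference was -0.18, or 88.2% of the CD level, against -0.05 in the input. None passed 1.5-fold, past which 0.493% of all genes lay, and 2 lay at least 0.32 log2 units lower, as did 2.46% of all genes. In either direction, 192 of all genes (4.3%) were past 0.32 log2 units, of which 82 (1.84%) were higher in HFD. Members were assigned to complexes by gene name alone, with every Nduf gene, Ndufa4 among them, counted in complex I. Those below numbered 30 of 32 in complex I, 3 of 3 in complex II and 8 of 8 in complex III. In complex IV they were 9 of 9 and in complex V 11 of 12. By this assignment complex IV, cytochrome c oxidase, had the lowest median at -0.26.

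Uqcr10, a small subunit of complex III, stood at 264 FPKM in the HFD IP and 355 FPKM in the CD IP (-0.42 ± 0.35), with 160.0 FPKM in the HFD input and 159 FPKM in the CD input. Cox6b1 of complex IV was at 461 FPKM in the HFD IP and 581 FPKM in the CD IP (-0.32 ± 0.38, input -0.09). At the other end, Ndufv1, a catalytic subunit of complex I, was at 87.9 FPKM in HFD and 86.7 FPKM in CD (0.03 ± 0.33). The 12 compared mRNAs of cytosolic ribosomal proteins all lay below the median too, with a median of -0.17 in the IP and -0.06 in the input. Rps23 was at 130.1 FPKM in the HFD IP and 158 FPKM in the CD IP (-0.27 ± 0.34), and Rpl9 at 312 FPKM in HFD and 369 FPKM in CD (-0.23 ± 0.34). Ribosomal protein genes have many near-identical pseudogenes, so their counts are uncertain.

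Cytosolic chaperones, which fold proteins and hold them under heat or other stress, lay on the other side. Of 32 listed, 17 were compared and 16 lay above the median, with a median of 0.16 in the IP and 0.06 in the input. None lay past 0.32 log2 units, where 4.3% of all compared genes lay. Hsp90aa1 was at 583 FPKM in the HFD IP and 494 FPKM in the CD IP (0.25 ± 0.66), Hspa8, the constitutive HSC70, at 1099.6 FPKM in HFD and 977 FPKM in CD (0.18 ± 0.39), and Hspa4, an exchange factor of HSP70 proteins, at 115 FPKM in HFD and 96.2 FPKM in CD (0.27 ± 0.39). Hspa1a, the heat-inducible HSP70, was at 2.46 FPKM in HFD and 2.06 FPKM in CD (0.26 ± 0.51), and its reads are shared with the near-identical Hspa1b. Genes of the unfolded protein response, which include chaperones of the endoplasmic reticulum, also lay mostly above, 9 of 11 compared, but by less. Their median was 0.04 in the IP and -0.01 in the input. With centring within quartiles of exonic length it was 0.07 in the IP, with 8 above and 3 below. Hspa5 was at 83.2 FPKM in HFD and 77.5 FPKM in CD (0.11 ± 0.33).

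The promoters of Hspa1a and Hspa4, a heat-inducible member and the member with the highest difference, are shown as the 250 bases before the RefSeq start (GRCm38.p6), at chr17:34972157-34972406 and chr11:53300480-53300729, both on the minus strand. Capitals mark GAANNTTC, the core of the element bound by heat shock factors.
Hspa1a: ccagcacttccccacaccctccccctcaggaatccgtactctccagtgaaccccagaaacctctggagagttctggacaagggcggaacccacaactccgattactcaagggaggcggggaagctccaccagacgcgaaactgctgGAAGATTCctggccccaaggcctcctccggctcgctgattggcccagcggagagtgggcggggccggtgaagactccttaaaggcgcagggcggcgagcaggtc
Hspa4: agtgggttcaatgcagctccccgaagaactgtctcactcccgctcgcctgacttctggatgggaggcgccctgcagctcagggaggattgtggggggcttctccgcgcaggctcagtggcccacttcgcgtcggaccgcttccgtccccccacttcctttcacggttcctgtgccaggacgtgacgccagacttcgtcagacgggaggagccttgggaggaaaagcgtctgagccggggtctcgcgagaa
The Hspa1a promoter held a single match, 104 bases before the start, and the Hspa4 promoter held none, while 6.69% of the 32851 promoters held a match.

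Transcripts of the mitochondrial genome lay above the median in the IP. All 7 compared of 13 did so, with a median of 0.24, or 118% of the CD level, against 0.02 in the input. The oxidase subunit mt-Co1 was at 182 FPKM in the HFD IP and 168 FPKM in the CD IP (0.12 ± 0.47), against 9155 FPKM in the HFD input and 9224 FPKM in the CD input. The cytochrome b mRNA mt-Cytb was at 101 FPKM in the HFD IP and 84.5 FPKM in the CD IP (0.27 ± 0.40). These mRNAs are translated inside mitochondria, on ribosomes that do not hold L10a, and each stood far below its input. mt-Nd6 and mt-Nd5 share a deposited locus and overlap on opposite strands, so the value of mt-Nd6 (0.46 ± 1.32) is uncertain. Glycolytic genes lay slightly above the median, 13 of 16 compared, with a median of 0.05 in the IP and 0.04 in the input. The largest of these was Pfkp, a phosphofructokinase, at 79.4 FPKM in HFD and 69.1 FPKM in CD (0.21 ± 0.38).

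**Figure D4:**
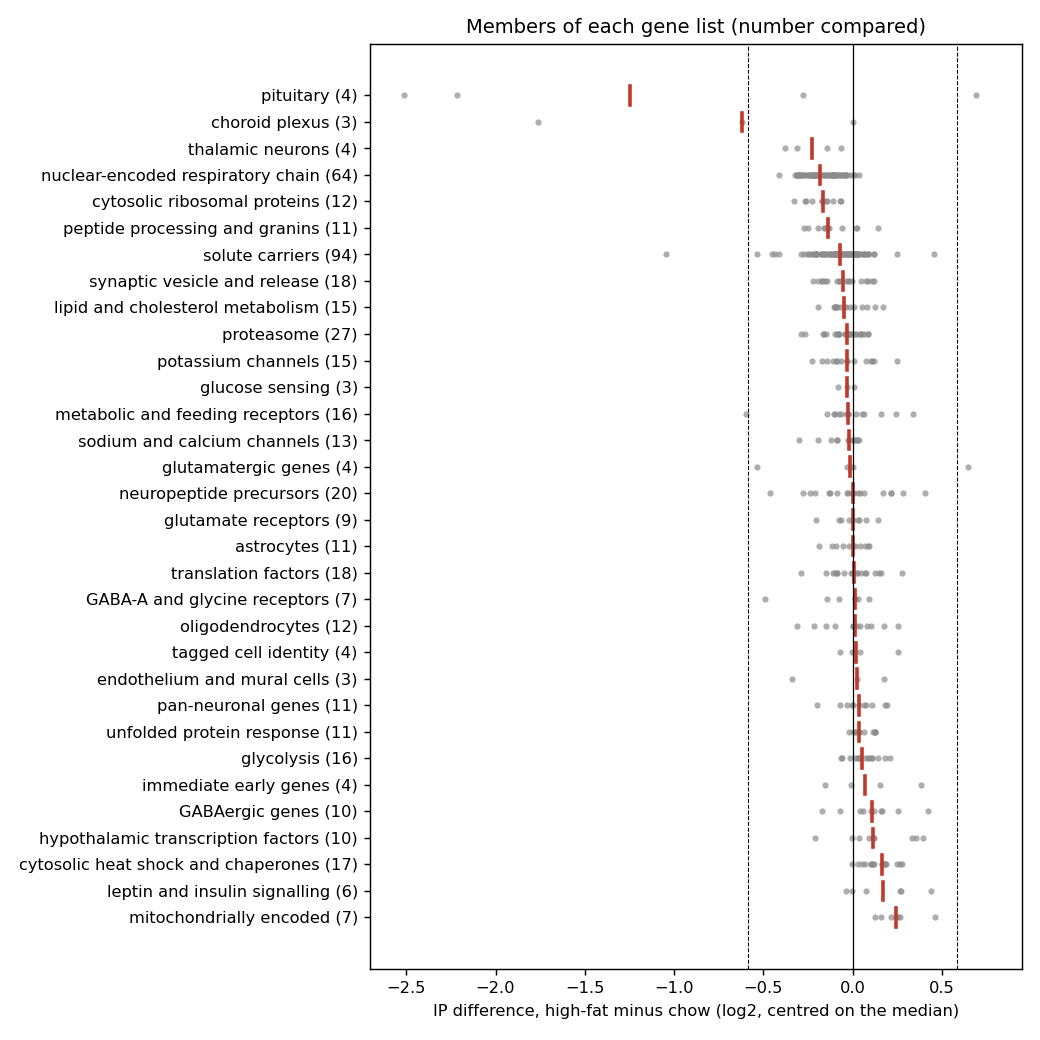
Centred log2 difference of ribosome-bound levels, HFD minus CD, for the compared members of each gene list with at least 3 of them (number in brackets). Grey points are genes, red bars list medians and dashed lines 1.5-fold. Respiratory chain members crowd left of 0 and chaperones right of 0, all inside the dashed lines.

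Differences in the IP also went with the length of a gene's exons, which those list values accompany. In the lowest length quartile of 4198 single genes (168 to 2485 bases) the median difference was -0.07 and 33% of genes lay above the overall median. In the highest length quartile (6389 to 123179 bases) the median was 0.06 and 69.6% lay above. Spearman's rho with length was 0.32 in the IP and 0.07 in the input, where these quartiles had medians of -0.01 and 0.01. Of the 64 respiratory chain members, 48 belonged to the lowest length quartile. With the difference centred within length quartiles, an alternative added after the values were seen, the respiratory chain median was -0.12 with 56 of 64 below. Under the same centring the ribosomal proteins had a median of -0.09 with 7 of 8 below, the chaperones 0.14 with 15 of 15 above, and Pnoc a difference of 0.07. The part of length in these list values was not tested beyond this.

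**Figure D5:**
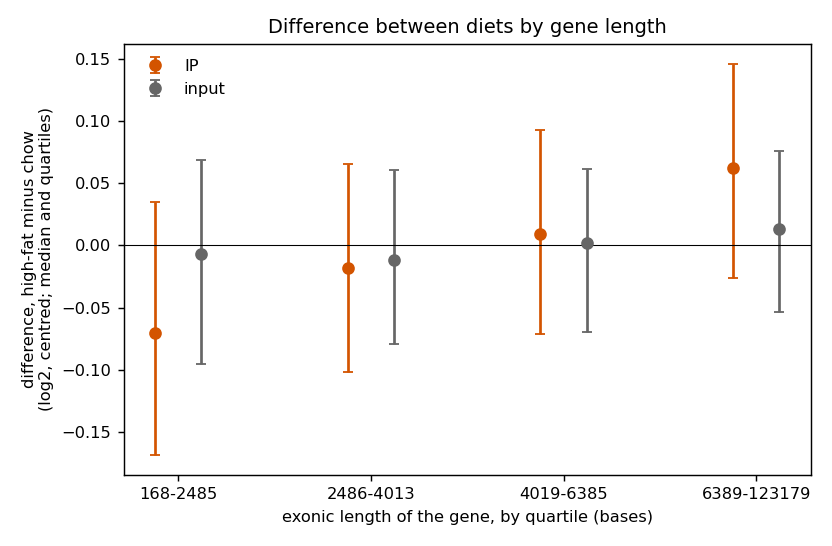
Centred log2 difference, HFD minus CD, by quartile of exonic length for 4198 single genes, in the IP and in the input. Points mark medians and bars span the quartiles. The IP medians run between -0.07 in the lowest and 0.06 in the highest length quartile, while the input medians run between -0.01 and 0.01.

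Other well-expressed protein-coding genes at the ends of the distribution stayed within 1.5-fold, apart from Tmem160. Tmem160, a mitochondrial membrane protein, was at 7.01 FPKM in the HFD IP and 11.4 FPKM in the CD IP (-0.69 ± 0.57, input -0.29). Ptpn3, a protein tyrosine phosphatase, was at 15.5 FPKM in HFD and 22.1 FPKM in CD (-0.50 ± 0.76), and the chemokine Ccl17 at 5.44 FPKM in HFD and 7.67 FPKM in CD (-0.49 ± 0.76, input -0.45). Gabrd, the delta subunit of extrasynaptic GABA-A receptors, was at 6.44 FPKM in HFD and 9.10 FPKM in CD (-0.49 ± 0.50, input -0.43). Its input thus lay the same way.

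At the upper end, Peg10, a retrotransposon-derived imprinted gene, was the most abundant of the 12 highest, at 99.1 FPKM in the HFD IP and 74.97 FPKM in the CD IP (0.41 ± 0.34, input 0.27). Hmgn5, a nucleosome-binding protein, was at 7.12 FPKM in HFD and 5.14 FPKM in CD (0.48 ± 0.42, input 0.09), and Cd24a, a surface glycoprotein of immature neurons and other cells, at 10.3 FPKM in HFD and 7.50 FPKM in CD (0.47 ± 0.40, input 0.26). Tead1, a transcription factor of the Hippo pathway, was at 5.09 FPKM in HFD and 3.79 FPKM in CD (0.44 ± 0.43, input 0.01). The methylcytosine dioxygenase Tet2 was at 5.48 FPKM in HFD and 4.13 FPKM in CD (0.42 ± 0.79, input -0.03), and the unconventional myosin Myo10 at 5.21 FPKM in HFD and 3.83 FPKM in CD (0.45 ± 0.65, input -0.01). For the last 3 the input was close to level while the IP was higher in HFD, by less than the 95% range of the recovered error. Tead1 lay outside the range of the error scaled to the deposited p-values. The IP of Tead1 was 48.3% of its input in HFD and 35.9% in CD. For Tet2 it was 33.5% in HFD and 24.5% in CD, and for Myo10 50.1% in HFD and 36.3% in CD. Hmgn5 and Cd24a also stood below their inputs in both diets, while Peg10 stood above. Whether the RNA of these depleted genes came from tagged cells was not tested.

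Of the 22 genes past 1.5-fold, 11 fall under the rule for named genes and 11 were picked out after their values were seen. Among the 11 picked out, Sox6, a transcription factor of several neural lineages, was at 4.17 FPKM in the HFD IP and 2.17 FPKM in the CD IP (0.95 ± 1.03), and the monooxygenase Fmo1 at 1.97 FPKM in HFD and 1.08 FPKM in CD (0.87 ± 0.91). Malat1, an abundant nuclear RNA that falls under the rule, stood just inside the threshold at 86.7 FPKM in HFD and 57.8 FPKM in CD (0.59 ± 1.29). Gm37376 has the same deposited locus and a difference of 0.59, so their reads cannot be told apart. Ramp3 was the next inside, and just outside lay Gm34583 at -0.57, Cdkn1c at -0.56 and Hist1h3e at -0.56. The remaining ones picked out were Rbm3-ps (-0.96), Crnde (-0.70), 2310010J17Rik (-0.69), Spaca6 (-0.69), Pgf (-0.61) and Ftl1-ps1 (0.71), with Zfp36l1 (-1.19) and Bc1 (-0.92). Otx2, a choroid plexus marker under the rule, was at 1.34 FPKM in HFD and 2.07 FPKM in CD (-0.62 ± 0.68).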

How the data were processed

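Per the labels, IP and input RNA of the hypothalamus came from 4 libraries per group. Per the submitters' processing notes, the tools were Cuffdiff, Cufflinks 2.2.1, StringTie 1.3.4d and HISAT2 2.1.0, and the build was GRCm38.p6. No source used here gives the settings of Cuffdiff, its scaling or strand use. For each diet the authors deposited 1 table with group FPKM of input and IP, their log2 ratio, a test statistic (a signed score) and p-values and q-values. The deposited q-values reach at most 0.0499 in each table. Recomputed log2 ratios differed from the deposited ones by at most 1.31e-05. No per-library columns existed to set aside (0), and depth is unknown.

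Entries repeating the values of a locus were merged, which left 6540 tests for HFD and 6686 for CD. A difference was the log2 ratio of IP FPKM between diets, centred on the median over the 4465 joined genes with at least 1 FPKM in both. The standard error of each deposited ratio was its log2 ratio over the deposited score, and the errors of both diets were combined as the root of summed squares. The deposited p-values correspond to normal deviates about 1.95 times as large as the score in HFD, so this error is wide. No p-value was computed, because there are no values per library. The labels do not say whether libraries came from separate animals, so any spread may be technical. The joining and counting steps were tested on simulated data. GENCODE M21 gave gene positions and exonic lengths, and RefSeq gave promoters.

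Genes named in the text were, among protein-coding single genes with at least 5 FPKM in the IP of a diet, the 12 highest and 12 lowest differences, the 6 most abundant, the cell identity genes, and the extremes and members past 1.5-fold of each gene list. Members named beyond that rule as further examples of a list were chosen after their values were seen. The comparison, the members and the 41 lists were chosen with earlier results of these data known. Alternatives changed the centring, the FPKM minimum, a pseudocount of 1 FPKM, the join and the fold threshold.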

Additional observations from a re-analysis of the deposited data

Results flagged for a closer look

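Zfp36l1, an RNA-binding protein that speeds decay of mRNAs with AU-rich elements, was picked out because its difference in the IP lay opposite to that in the input. It stood at 1.86 FPKM in the HFD IP and 4.28 FPKM in the CD IP, with 22.1 FPKM in the HFD input and 21.3 FPKM in the CD input. The centred difference was -1.19 in the IP, with a recovered standard error of 1.297, and 0.07 in the input. Whether the IP and input differences differ from each other was not tested.

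Bc1, a small cytoplasmic RNA of neurons that does not code for protein, was picked out for the same reason. It stood at 4.15 FPKM in the HFD IP and 7.92 FPKM in the CD IP, with 115 FPKM in the HFD input and 96.2 FPKM in the CD input. The centred difference was -0.92 in the IP, with a recovered standard error of 1.38, and 0.27 in the input. This difference between IP and input was not tested either.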

How the results depend on the processing

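The 22 genes past 1.5-fold in the IP numbered between 20 and 24 without centring, with centring on enriched genes, with centring within quartiles of exonic length, joined on gene alone, and with every identifier counted. They numbered 8 at a minimum of 5 FPKM, 193 with no minimum, 12 with a pseudocount of 1 FPKM, and 3 among genes enriched in both tables with the median taken over those. With other limits, 5 passed 2-fold, 192 passed 0.32 log2 units and 4 lay outside the 95% range of the recovered error. Those 4 became 2 at a minimum of 5 FPKM, 2 with the pseudocount and 0 among genes enriched in both tables. With the error scaled to the deposited p-values, an alternative added after the values were seen, as were the limit of 0.32 log2 units and the centring by length, 29 genes lay beyond it, 12 higher and 17 lower in HFD. In the input, 21 genes past 1.5-fold became 11 with the pseudocount and 7 at a minimum of 5 FPKM. Gene lists with a median past 0.1 log2 units numbered 11, and between 8 and 10 under the alternatives run on them. No named gene or list past its limit changed sign under the alternatives run. For a gene such a change was hardly possible. Centring moved differences by far less than 1.5-fold, and a pseudocount keeps the order of the levels compared. No paired analysis was possible because the tables hold 1 value per group, and for the same reason no library was left out. Low levels limit most of the 22 genes, and the unknown depth gives no counting error.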

Other observations

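Solute carriers, the membrane transporters of ions and metabolites, lay mostly lower in the IP of HFD mice. Of 94 compared, 68 lay below and 26 above the median of all genes, with a median of -0.07 in the IP and -0.02 in the input. Besides Slc6a3, the ends of the list were Slc17a7 and Slc5a7, the choline transporter of cholinergic neurons, at 1.51 FPKM in the HFD IP and 1.11 FPKM in the CD IP (0.45 ± 0.53, input 0.92). Of 18 compared genes of synaptic vesicles, 13 lay below the median, with a median of -0.06 in both fractions. The vesicle protein Syp was at 683 FPKM in the HFD IP and 775 FPKM in the CD IP (-0.17 ± 0.38). Of 27 proteasome genes 19 lay below, with a median of -0.03, but with centring within length quartiles 13 lay above and 13 below, with a median of -0.00226. The 18 translation factors divided evenly, 9 above and 9 below.

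Ion channels and transmitter receptors centred on 0. The 15 compared potassium channel genes had a median of -0.03, the 13 sodium and calcium channel genes -0.02, the 9 glutamate receptor genes 0.00 and the 7 GABA-A and glycine receptor genes 0.01. Genes of lipid and cholesterol metabolism had a median of -0.05 over 15 compared of 42, with Fabp5, a fatty acid binding protein, at 63.1 FPKM in the HFD IP and 72.7 FPKM in the CD IP (-0.19 ± 0.35). Of 19 inflammation genes 2 were compared, B2m at 38.2 FPKM in HFD and 42.4 FPKM in CD, and Ifit3 at 1.62 FPKM in HFD and 1.45 FPKM in CD.

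Outside the compared genes, 987 tests were listed in the HFD table alone, 608 enriched and 379 depleted, and 1133 in the CD table alone, 593 enriched and 540 depleted. Of the genes listed in both tables with under 1 FPKM in the IP of a diet, 3 were picked out after their values were seen. Ramp1, a partner of calcitonin-type receptors like Ramp3, was at 0.859 FPKM in the HFD IP and 1.43 FPKM in the CD IP, with 7.59 FPKM in the HFD input and 8.26 FPKM in the CD input. The nicotinic receptor subunit Chrna6 was at 0.608 FPKM in the HFD IP and 1.02 FPKM in the CD IP, with 2.27 FPKM in the HFD input and 4.55 FPKM in the CD input. Aif1, a microglial marker, lay the other way, at 1.02 FPKM in the HFD IP and 0.679 FPKM in the CD IP, with 7.40 FPKM in the HFD input and 6.77 FPKM in the CD input.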
